A study of Mus musculus with 15 samples.

Results

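The genes described here encode the proteins of the cytosolic ribosome. They were chosen by name from the scanner files of the 15 arrays: every gene name made of Rpl or Rps, a number and at most a short suffix, with the stalk genes Rplp0, Rplp1 and Rplp2 and with Rpsa. For each name the probe with the highest mean processed signal was taken. This gave 84 genes of the 31829 gene names on the array, 52 of the large subunit with the stalk and 32 of the small subunit. All 84 were well above background on all 15 arrays and none had a saturated spot, so none was lost to the filter on dim probes that left 25090 genes for testing.

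The samples were mouse embryonic stem (ES) cells that carried 1 of 2 short hairpin RNAs, sh4 or the control shCTR, and were either treated for 72 hours with 1 µM retinoic acid (RA), a signalling molecule made from vitamin A under which ES cells leave the pluripotent state, or not treated. There were 3 arrays of sh4 with RA, 4 of shCTR with RA, 4 of untreated sh4 and 4 of untreated shCTR, so a hairpin was present in every group and no group lacked one. The series title names Phf19, a Polycomb-associated protein, but the labels give no target for sh4, no line or clone, and no culture time for the untreated cells. Phf19 lay between −3.97 and −3.71 in sh4 with RA, −3.06 and −2.80 in shCTR with RA, −2.61 and −2.51 in untreated sh4, and −0.98 and −0.69 in untreated shCTR. These levels, and all levels below, are log2 signals relative to the 75th percentile of the same array, so a level of 7 is far above a typical probe and 0 is at the 75th percentile. The labels call the arrays biological replicates without naming cultures, so a p-value covers the spread between these samples alone, which may be technical. RA cannot be told apart from the time in culture.

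A ribosome has a small subunit, which holds the mRNA and reads it, and a large subunit, which joins the amino acids. Apart from stalk proteins such as Rplp1 and Rplp2, its proteins are needed in equal numbers, and copies that do not assemble are degraded. Their mRNAs begin with a run of pyrimidines, the 5′ terminal oligopyrimidine (TOP) tract, through which the kinase mTOR and the RNA-binding protein Larp1 control their translation. Ribosome production rests as well on RNA polymerase I, which makes the ribosomal RNA, and on assembly factors that act in the nucleolus. A few ribosomal proteins have paralogs used in particular tissues, such as Rpl10l in the testis and Rpl3l in muscle.

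The probes that carried the results are printed as the scanner files give them, 5′ to 3′, with their mm9 position, because probes of paralogs and of 1 gene did not always read alike. Capitals mark the polyadenylation signal AATAAA or ATTAAA where a probe holds it. The first 9 are the brightest probes of paralogs, of their main counterparts and of Rps26, and the last 2 are a pair of probes for Rps3.
Rpl10l, mm9 chr12:67384403-67384462, minus strand: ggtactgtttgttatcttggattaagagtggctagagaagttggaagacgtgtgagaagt
Rpl10, mm9 chrX:71518307-71518366, plus strand: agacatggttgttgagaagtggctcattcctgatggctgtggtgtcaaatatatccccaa
Rpl39l, mm9 chr16:10174657-10174716, plus strand: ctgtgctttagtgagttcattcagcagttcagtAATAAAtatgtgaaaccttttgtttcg
Rpl39, mm9 chrX:34622618-34622677, minus strand: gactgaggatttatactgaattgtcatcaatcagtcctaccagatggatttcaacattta
Rpl22l1, mm9 chr3:28706237-28706296, plus strand: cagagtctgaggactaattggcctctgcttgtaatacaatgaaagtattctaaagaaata
Rpl22, mm9 chr4:151706515-151706574, plus strand: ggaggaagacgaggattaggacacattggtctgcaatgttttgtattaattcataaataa
Rpl7l1, mm9 chr17:46912582-46912641, minus strand: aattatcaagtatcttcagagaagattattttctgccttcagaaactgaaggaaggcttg
Rps26, mm9 chr10:128062300-128062359, minus strand: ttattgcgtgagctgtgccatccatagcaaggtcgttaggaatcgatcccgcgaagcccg
Rpl3l, mm9 chr17:24872413-24872681, plus strand: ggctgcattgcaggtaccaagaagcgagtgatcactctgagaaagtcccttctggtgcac
Rps3, mm9 chr7:106627408-106627786, minus strand: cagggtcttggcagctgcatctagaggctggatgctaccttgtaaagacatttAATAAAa
Rps3 second probe, mm9 chr7:106626430-106626489, minus strand: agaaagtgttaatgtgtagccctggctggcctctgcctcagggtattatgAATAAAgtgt

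Each probe is 60 bases long. Of the 84 brightest probes, 24 held a polyadenylation signal and 60 did not, and their GC content ran between 30.0% and 55.0% with a median of 45.0%. By the files' coordinates the probes of Rpl12 (chromosome 10) and Rps29 (chromosome 2) lie on other chromosomes than those genes (2 and 12). The files list predicted RefSeq transcripts beside the named one for 57 of the 84 probes, and ribosomal protein genes have many processed copies; whether such copies add to a signal was not tested. All 84 names matched a gene in the RefSeq table of GRCm38.p6. For 3 the current symbol differs: Rpl26l1 is now Rpl26-ps4, a pseudogene, Rps4y2 is Rps4l, a transcribed pseudogene, and Rps3a is Rps3a1.

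Start sites of 6 genes, picked as examples of long runs and as paralogs, are printed to show the pyrimidine tract, from RefSeq promoters of GRCm38.p6, with 40 bases before and 25 after the annotated start. Capitals mark the longest run of C and T that touches the 10 bases on either side of the start.
Rpl28, GRCm38.p6 chr7:4792925-4792989, plus strand: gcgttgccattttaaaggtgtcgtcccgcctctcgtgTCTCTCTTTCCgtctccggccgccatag
Rpl15, GRCm38.p6 chr14:18270962-18271026, minus strand: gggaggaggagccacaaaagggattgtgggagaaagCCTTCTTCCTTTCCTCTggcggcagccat
Rpl38, GRCm38.p6 chr11:114668540-114668604, plus strand: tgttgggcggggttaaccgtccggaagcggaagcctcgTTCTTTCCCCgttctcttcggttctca
Rps10, GRCm38.p6 chr17:27635220-27635284, minus strand: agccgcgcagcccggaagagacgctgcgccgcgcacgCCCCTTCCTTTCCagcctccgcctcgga
Rpl10l, GRCm38.p6 chr12:66284377-66284441, minus strand: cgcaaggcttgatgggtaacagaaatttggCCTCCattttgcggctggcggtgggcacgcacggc
Rpl39l, GRCm38.p6 chr16:10170188-10170252, plus strand: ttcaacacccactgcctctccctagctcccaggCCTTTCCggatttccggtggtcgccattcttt

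The runs were 11, 17, 10 and 13 bases long in Rpl28, Rpl15, Rpl38 and Rps10, against 5 in Rpl10l and 7 in Rpl39l, the testis paralogs. RefSeq promoters were found for 62 of the 84 genes. A run of at least 8 pyrimidines on the sense strand touched this window in 29 of the 62 (46.8%), against 15.8% of the 27025 genes with a promoter in the table. The median of the longest run was 7 bases in ribosomal protein genes and 4 over all genes. In the whole 300-base promoter, on either strand, CCGGAAG, the core of sites for Ets-family factors, stood in 26 of the 62 (41.9%) against 9.93% of all genes. CACGTG, the E-box bound by Myc and others, stood in 6 (9.68%) against 8.09%. GCCATCTT, part of the site for Yy1, also stood in 6 (9.68%) against 3.19%. None of these 3 motifs contains another, and a match is a string of letters and not a measured binding site.

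Most ribosomal protein mRNAs were modestly lower after RA relative to the array's 75th percentile, and how many passed the test depended strongly on how the arrays were scaled. In sh4 cells 49 of the 84 fell and none rose, with a median log2 fold change of −0.33, or 20.2% lower. In shCTR cells 53 fell and none rose, with a median of −0.36, or 22.3% lower. The tests were limma's with Benjamini-Hochberg adjustment over all 25090 genes and a threshold of 0.05 on the adjusted p. Over all genes, 31.6% were called lower and 27.1% higher in sh4, and 33.5% lower and 29% higher in shCTR, with a median of −0.12 in both. The sign was negative for 80 of the 84 in sh4 and 82 in shCTR. The genes that fell in both numbered 42, which is 85.7% of those in sh4 and 79.2% of those in shCTR, and 24 passed in neither. The levels of the treated arrays lay wholly below those of the untreated arrays for 46 genes in sh4 and 57 in shCTR, against 31% and 32% of all genes.

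**Figure D1:**
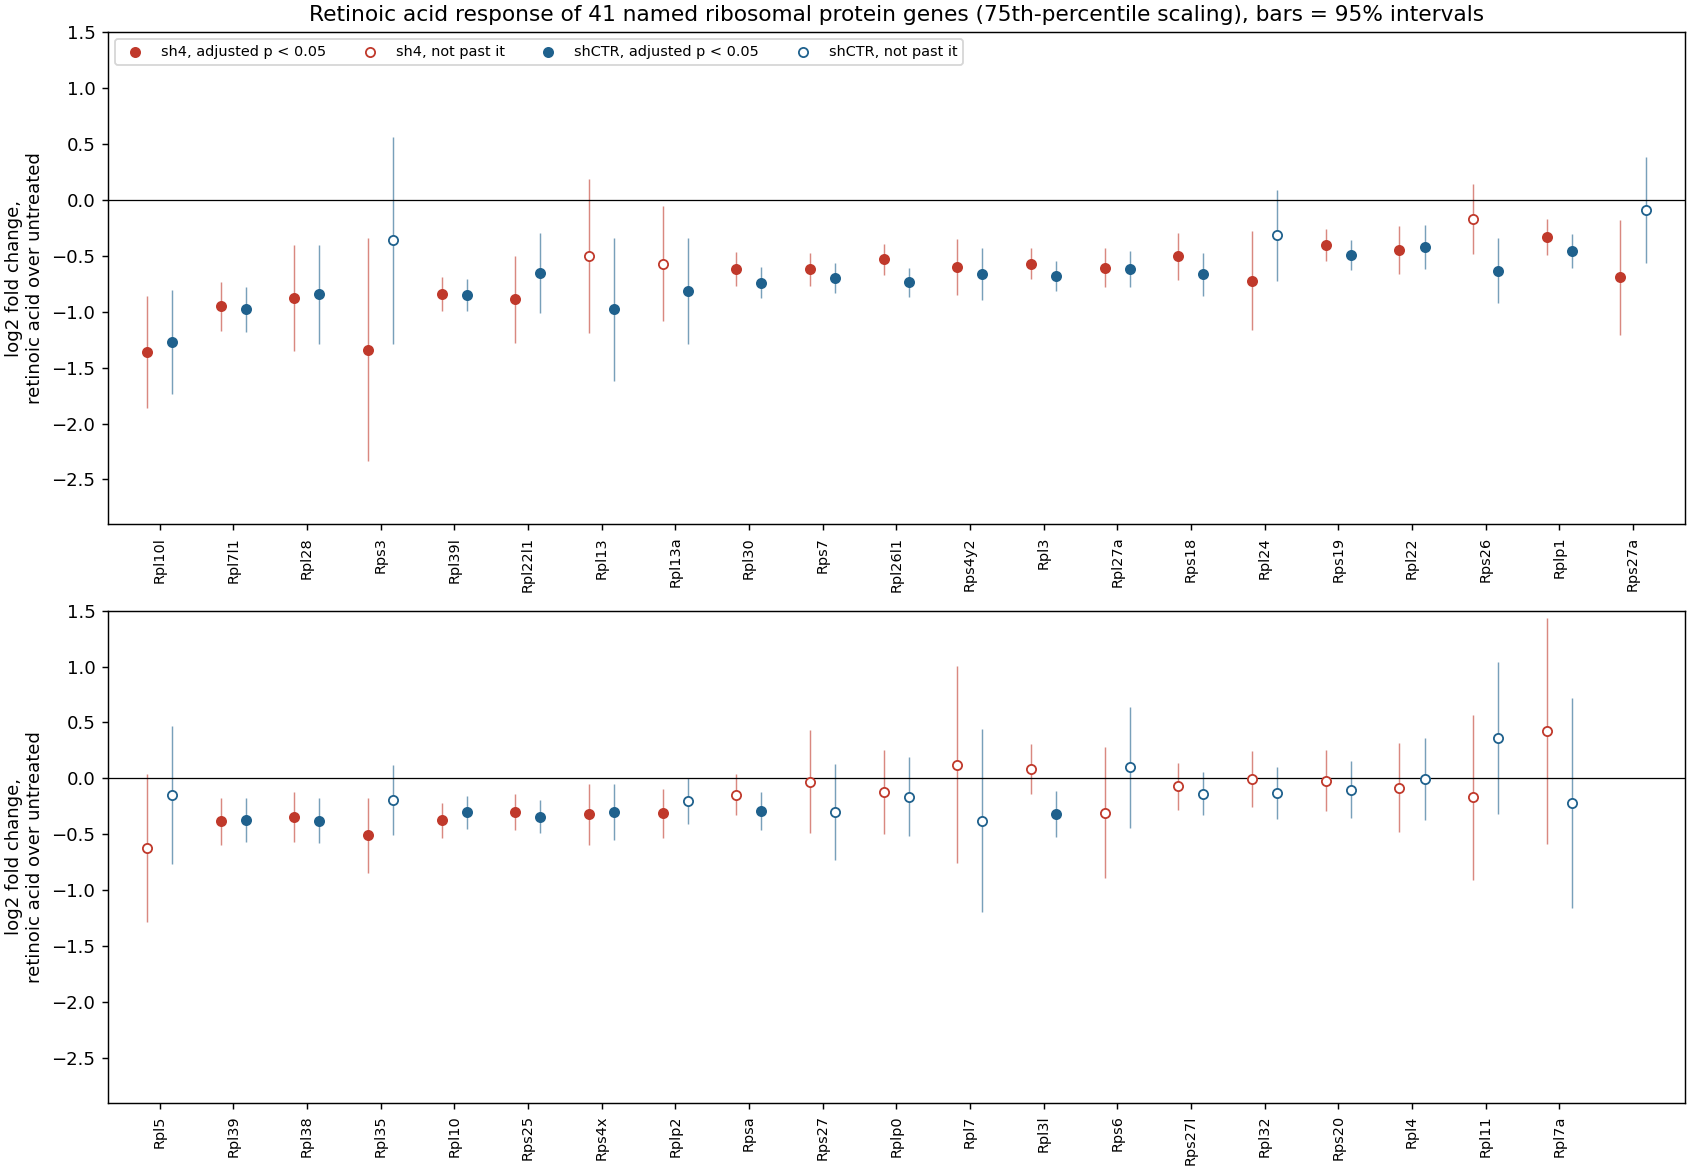
Log2 fold change of 41 named ribosomal protein genes (x axis, in 2 rows ordered by the mean of both) after RA over untreated (y axis), in sh4 (red) and shCTR (blue), with 95% intervals from the standard error. Filled points passed an adjusted p of 0.05. Most points lie between −0.7 and 0, and Rpl10l is lowest in both.

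The same direction was seen within each slide, which was also the scan order and is the batch the files record. Differences between arrays of the same slide had medians of −0.43, −0.28 and −0.36 in sh4, on slides 1 to 3, with 78, 73 and 72 of 84 genes negative. In shCTR the medians were −0.36, −0.29, −0.38 and −0.48 on slides 1 to 4, with 75, 73, 79 and 83 negative. Slide 4 held no treated sh4 array. With slide as a block, 50 genes fell in sh4 and 56 in shCTR, against 38.4% and 38.9% of all genes.

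Scaling changed the picture more than any other choice. Under quantile normalisation, which gives all arrays 1 distribution, 12 genes fell and 3 rose in sh4 (median −0.03), and 21 fell and 1 rose in shCTR (median −0.06), against 30.8% and 35% of all genes called lower. Scaled to the total signal, 14 fell and 3 rose in sh4 (median −0.04), and 27 fell and none rose in shCTR (median −0.08), against 19.5% and 22.3% of all genes lower. Scaled to the median probe, 57 and 68 fell, with medians of −0.47 and −0.57, against 36.2% and 41.4% of all genes lower. The median of all genes moved as well, between −0.27 and 0.17 in sh4 and between −0.33 and 0.16 in shCTR. With 1 factor per array on the processed signal, ribosomal protein genes lay 0.20 below that median in sh4 and 0.24 below in shCTR. Such a factor shifts the change of every gene equally, so the choice of factor cannot alter these 2 values. Their equality across those scalings is therefore no test of robustness. Under quantile normalisation ribosomal protein genes lay above that median, by 0.08 in sh4 and 0.09 in shCTR. The summed signal of the 84 probes was 5.78 ± 0.20% of the total in sh4 with RA (SD, n = 3) and 5.82 ± 0.19% in untreated sh4 (n = 4). It was 5.68 ± 0.03% in shCTR with RA and 5.88 ± 0.15% in untreated shCTR (n = 4 each), and in both hairpins the ranges of treated and untreated arrays overlapped.

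**Figure D2:**
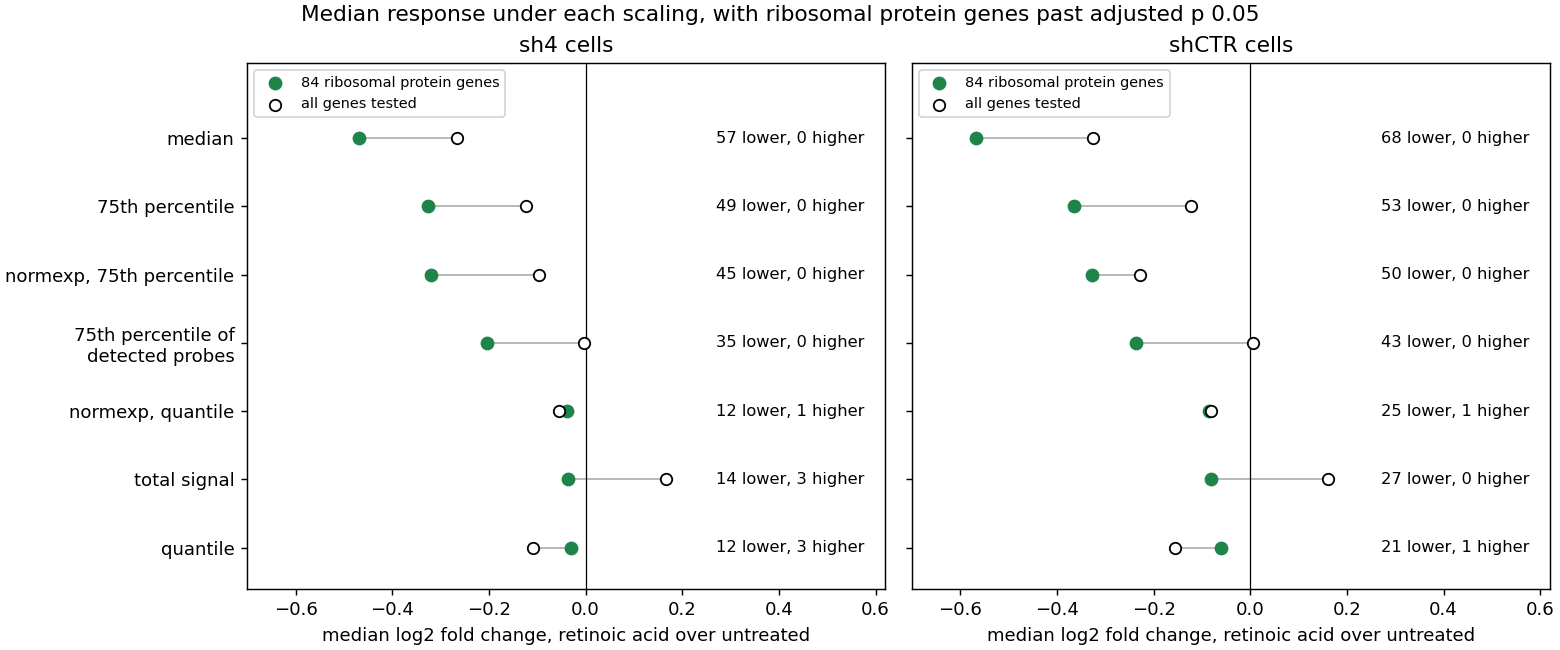
Median log2 fold change after RA (x axis) of the 84 ribosomal protein genes (filled) and of all 25090 genes (open) under 7 scalings (y axis), in sh4 (left) and shCTR (right). The printed counts are ribosomal protein genes past an adjusted p of 0.05; between 12 and 57 fell in sh4 and between 21 and 68 in shCTR.

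A smaller set fell whatever the scaling. Over 8 scalings, of which the deposited log2 values and normexp with quantile normalisation gave the same counts, 8 genes were called lower in sh4 in all and 17 in shCTR in all, with 7 in common. Among the 7 were Rpl10l, Rpl7l1, Rpl39l, Rpl28, Rpl30 and Rpl3, and Rpl22l1 was added to them in sh4. The share of all genes called lower under all 8 was 17.8% in sh4 and 21.7% in shCTR, so these counts (8 and 17 of 84) were near or below that background. No gene was called higher under all 8 in either hairpin. The genes that rose under some of them, named for that call, were Rpl32, Rps20, Rps27l and Rpl3l in sh4 and Rpl4, the only one, in shCTR. Under quantile normalisation Rpl32 gave 0.27, Rps20 0.25 and Rps27l 0.34 in sh4, against −0.01, −0.02 and −0.07 under the 75th percentile. Rpl4 gave 0.39 in shCTR, against −0.01, and Rpl3l rose only when scaled to total signal, by 0.38.

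The paralog Rpl10l had the largest fall of the 84 genes in both hairpins, and the paralogs Rpl7l1, Rpl39l and Rpl22l1 were among the larger falls. Genes that are not paralogs were among them too, such as Rps3, which fell by 1.34 in sh4, and Rpl28, by 0.87 and 0.84. Rpl10l, the autosomal copy of X-linked Rpl10 that replaces it in male meiosis, read 1.04, 2.14 and 2.10 in sh4 with RA, against 3.13, 3.14, 2.85 and 3.36 in untreated sh4. In shCTR it read 2.14, 2.13, 2.08 and 2.43 with RA, against 3.39, 3.37, 3.36 and 3.74 untreated. Treated and untreated arrays did not overlap, and sh4 replicate 1 with RA was far below its group. The log2 fold changes were −1.36 (SE 0.23, adjusted p = 0.000149) in sh4 and −1.27 (SE 0.21, adjusted p = 0.000118) in shCTR. Both calls held with each array left out in turn.

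Rpl39l, a copy of X-linked Rpl39 expressed in male germ cells, was the steadiest of them. Its levels were 2.27, 2.28 and 2.25 in sh4 with RA, against 3.15, 3.19, 3.06 and 3.03 in untreated sh4, and 2.46, 2.39, 2.26 and 2.46 in shCTR with RA, against 3.18, 3.36, 3.26 and 3.18 untreated. Every treated array lay below every untreated one, with changes of −0.84 ± 0.07 (SE, adjusted p = 1.68e-07) in sh4 and −0.85 ± 0.06 (adjusted p = 5.16e-08) in shCTR.

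Rpl7l1, whose yeast relative Rlp7 is an assembly factor of the large subunit, read 0.77, 0.75 and 0.69 in sh4 with RA, against 1.61, 1.78, 1.59 and 1.76 in untreated sh4. In shCTR it read 0.33, 0.75, 0.64 and 0.52 with RA, against 1.37, 1.64, 1.58 and 1.57 untreated. The groups did not overlap, and it fell by 0.95 on the log2 scale in sh4 (adjusted p = 1.51e-06) and by 0.98 in shCTR (adjusted p = 4.24e-07). Rpl22l1, the paralog of the RNA-binding protein Rpl22, read 4.05, 4.11 and 5.01 in sh4 with RA, against 5.42, 5.20, 5.34 and 5.14 in untreated sh4. It read 4.88, 4.96, 4.94 and 4.89 in shCTR with RA, against 5.62, 5.54, 5.56 and 5.56 untreated. It fell by 0.89 in sh4 (adjusted p = 0.000626), where sh4 replicate 4 with RA stood above the other two, and by 0.65 in shCTR (adjusted p = 0.00313).

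The main counterparts of these paralogs moved less. Rpl10, which completes the large subunit in the cytoplasm, fell by 0.37 in sh4 and 0.31 in shCTR. Rpl39 fell by 0.38 in both, and Rpl22 by 0.45 and 0.42. Under quantile normalisation the change of Rpl39 was 0.03 in both hairpins, with the sign turned. Rpl7 did not pass the test, at 0.12 (95% interval −0.76 to 1.01) in sh4 and −0.38 (−1.20 to 0.44) in shCTR. Untreated sh4 replicate 3 read 4.82 against 6.74 to 7.13 in the other three, and without it the sh4 change was −0.40 (adjusted p = 0.00533). In shCTR a fit without 1 of the 15 arrays also passed, at an adjusted p of 0.00285. The shCTR levels did not overlap, at 6.45 to 6.61 with RA and 6.82 to 7.09 untreated. The test uses 1 spread for all 4 groups, and the SD of Rpl7 was 1.06 in untreated sh4. It was 0.07 in shCTR with RA and 0.11 in untreated shCTR. Whether a paralog fell more than its counterpart was not tested, since different probes can differ in how signal follows RNA.

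Not every paralog fell. Rps27l, a p53 target in human cells, gave −0.07 (interval −0.28 to 0.14) in sh4 and −0.14 (−0.33 to 0.06) in shCTR. Rps27 gave −0.03 and −0.30, and none of these passed. Untreated sh4 replicate 3 read 6.16 for Rps27, against 6.98 to 7.33 in the others. In shCTR the levels of Rps27 did not overlap, at 6.68 to 6.81 with RA and 6.85 to 7.22 untreated. Its second probe gave −0.28 in sh4 and −0.37 in shCTR. Rps4x, the X-linked small subunit gene, fell by 0.32 in sh4 and 0.31 in shCTR (adjusted p = 0.0374 and 0.0317), but gave 0.05 and 0.08 under quantile normalisation. Its pseudogene relative listed as Rps4y2 fell by 0.60 and 0.66. Rpl3l, the muscle paralog of Rpl3 and the dimmest of the 84, gave 0.09 in sh4, not past the test, and fell by 0.32 in shCTR (adjusted p = 0.009).

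**Figure D3:**
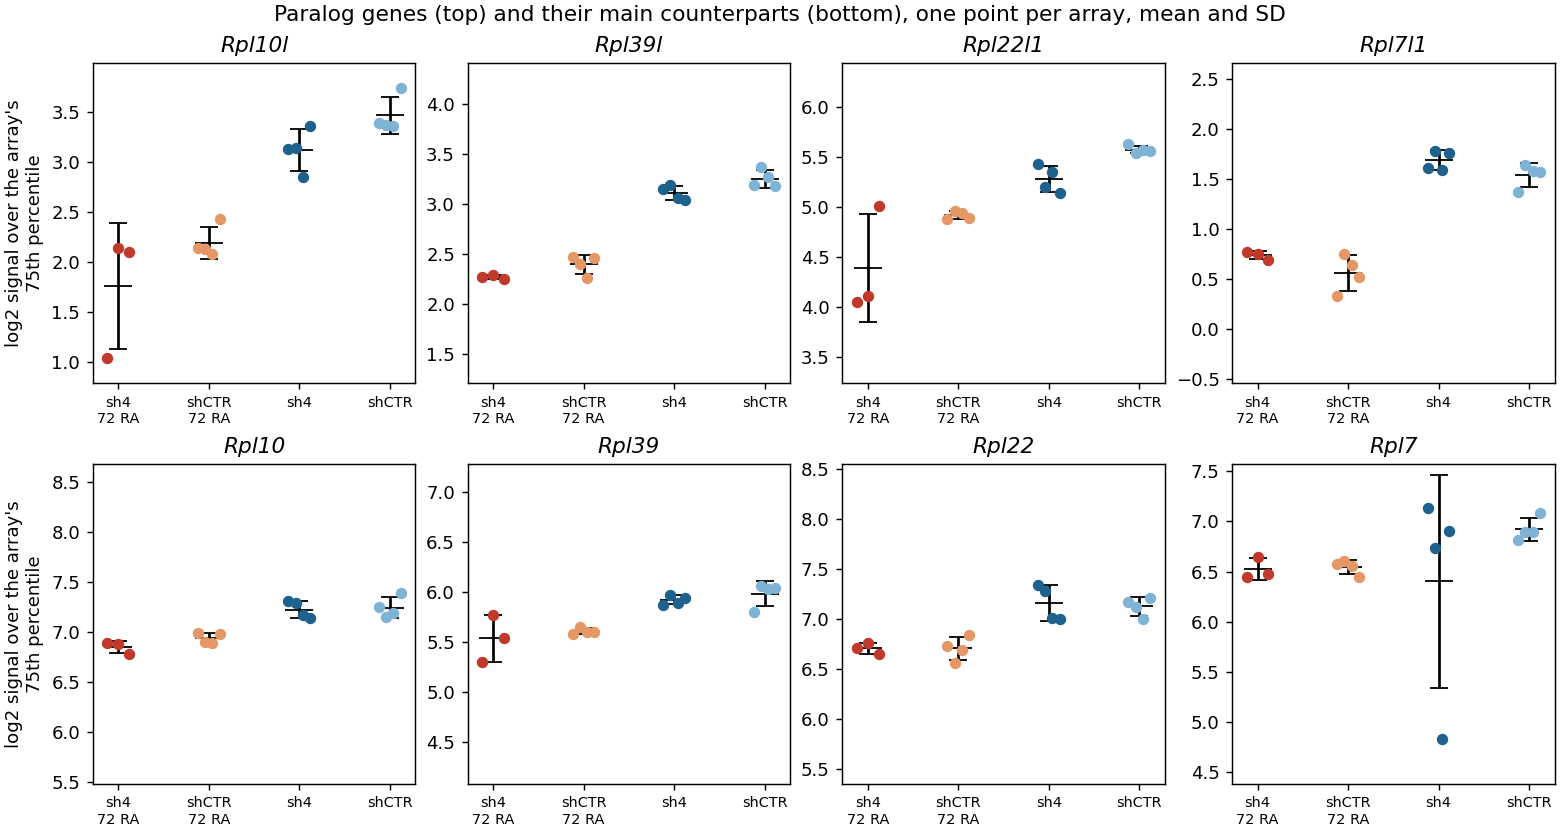
Log2 signal over each array's 75th percentile (y axis, 3.2 units in every panel) of Rpl10l, Rpl39l, Rpl22l1 and Rpl7l1 (top) and of Rpl10, Rpl39, Rpl22 and Rpl7 (bottom), 1 point per array, with mean and SD. In the top row the treated groups lie below both untreated groups, and 1 untreated sh4 array of Rpl7 stands at 4.82.

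Of the 52 large-subunit genes, paralogs included, 31 fell in sh4 and 35 in shCTR, against 31.6% and 33.5% of all genes. Their medians were −0.37 and −0.41. Rpl30 read 5.45, 5.48 and 5.44 in sh4 with RA, against 6.26, 6.002, 5.997 and 6.04 in untreated sh4. In shCTR it read 5.37, 5.42, 5.29 and 5.37 with RA, against 6.13, 6.05, 6.11 and 6.13 untreated, and the groups did not overlap in either hairpin. Rpl30 and Rpl3, the second of which lies near the site of peptide bond formation, fell by 0.62 and 0.57 in sh4 and by 0.74 and 0.68 in shCTR. Rpl28, which yeast lacks, fell by 0.87 in sh4 and 0.84 in shCTR. Its sh4 replicate 1 with RA, at 5.28, was below the other two, at 6.34 and 6.31, and without it the sh4 fall was 0.53.

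Some large-subunit values rested on single arrays. Rpl13 read 6.99, 6.91 and 6.77 in sh4 with RA, against 7.35, 7.48, 7.42 and 7.33 in untreated sh4, a change of −0.50 that did not pass (adjusted p = 0.192). In shCTR it read 5.62, 5.59, 7.01 and 6.96 with RA, against 6.97, 7.24, 7.36 and 7.51 untreated. Replicates 1 and 2 with RA stood more than 1 unit below replicates 3 and 4, and the fall was 0.98 (adjusted p = 0.00932). The test uses 1 spread for all 4 groups, and the SD of Rpl13 was 0.80 in shCTR with RA. It was 0.11 in sh4 with RA and 0.07 in untreated sh4, which did not overlap. Other Rpl13 probes gave −0.41 and −0.67 in sh4, and −0.45 and 0.16 in shCTR. Rpl13a, part of a translation-silencing complex in human monocytes, fell by 0.81 in shCTR and gave −0.57 in sh4 (adjusted p = 0.0509). Rpl24 fell by 0.72 in sh4, or by 0.39 without sh4 replicate 1 with RA, and Rpl27a by 0.61, and in shCTR Rpl27a fell by 0.62 while Rpl24 gave −0.32 (adjusted p = 0.16). The pseudogene listed as Rpl26l1 fell by 0.53 in sh4 and 0.74 in shCTR. The highest value in sh4 was that of Rpl7a, at 0.42, which did not pass (adjusted p = 0.469) and was −0.17 without untreated sh4 replicate 1.

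The stalk and the 5S particle were mixed. Rplp1, which with Rplp2 recruits elongation factors, fell by 0.33 in sh4 and 0.46 in shCTR. Rplp2 fell by 0.31 in sh4 and gave −0.20 in shCTR (adjusted p = 0.0739). Rplp0, their anchor and a common reference gene, gave −0.12 (interval −0.50 to 0.26) and −0.16 (−0.51 to 0.19), neither past the test. Rpl5 and Rpl11, which with 5S RNA bind Mdm2 and so stabilise p53, gave −0.62 and −0.17 in sh4 and −0.15 and 0.36 in shCTR. None of these passed, and Rpl11 had 1 untreated shCTR array, replicate 2, at 5.72 against 7.13 to 7.62 in the others. Its other probes gave −0.22 and −0.31 in sh4 and −0.30 and −0.33 in shCTR. Rpl5 had sh4 replicate 1 with RA at 4.51, against 6.03 and 5.55 in the others. Rpl38, needed for translation of Hox mRNAs in mouse embryos, fell by 0.35 and 0.38, with the sign turned in sh4 in the deposited log2 values (0.02).

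In the small subunit 18 of 32 genes fell in each hairpin, against 31.6% of all genes in sh4 and 33.5% in shCTR. The medians were −0.30 in sh4 and −0.32 in shCTR. Rps7, which also binds Mdm2, fell by 0.62 and 0.70, and Rps18, of the subunit's head, by 0.50 and 0.66. Rps19, mutated in Diamond-Blackfan anaemia in humans, fell by 0.40 and 0.49, and Rps25, used by some viral RNAs to start translation, by 0.30 and 0.34, but under quantile normalisation it gave 0.07 and 0.04. Rpsa, also known as a laminin receptor precursor, fell by 0.29 in shCTR and gave −0.15 in sh4 (adjusted p = 0.158). Rps6, the substrate of the S6 kinases, gave −0.31 (interval −0.89 to 0.28) and 0.10 (−0.44 to 0.64). Its untreated shCTR replicate 1 read 6.15, against 6.78 to 7.43 in the others, and sh4 replicate 4 with RA read 6.39, against 6.98 and 7.16. The second Rps6 probe gave −0.40 in sh4 and −0.56 in shCTR, and the dimmest gave 0.20 and −0.09. Rps27a, made as a fusion with ubiquitin, fell by 0.69 in sh4 (adjusted p = 0.0205, up to 0.102 with 1 array left out) and gave −0.09 in shCTR.

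Rps3, at the entry of the mRNA channel, read 4.83, 5.65 and 3.63 in sh4 with RA, against 5.996, 6.63, 5.38 and 6.15 in untreated sh4. In shCTR it read 5.13, 5.26, 6.10 and 6.12 with RA, against 6.39, 5.53, 5.62 and 6.50 untreated. The sh4 fall of 1.34 (SE 0.45, adjusted p = 0.0216) comes from scattered arrays that overlap, and without sh4 replicate 4 with RA it was −0.80 (adjusted p = 0.132). The second Rps3 probe printed above read 1.64, 1.74 and 1.57 in sh4 with RA, against 2.19, 1.96, 1.77 and 1.76 untreated, and 1.14, 1.17, 1.14 and 1.19 in shCTR with RA, against 1.96, 1.64, 1.66 and 1.87 untreated. Its change was −0.27 in sh4 and −0.62 in shCTR, the reverse order of the brightest probe.

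**Figure D4:**
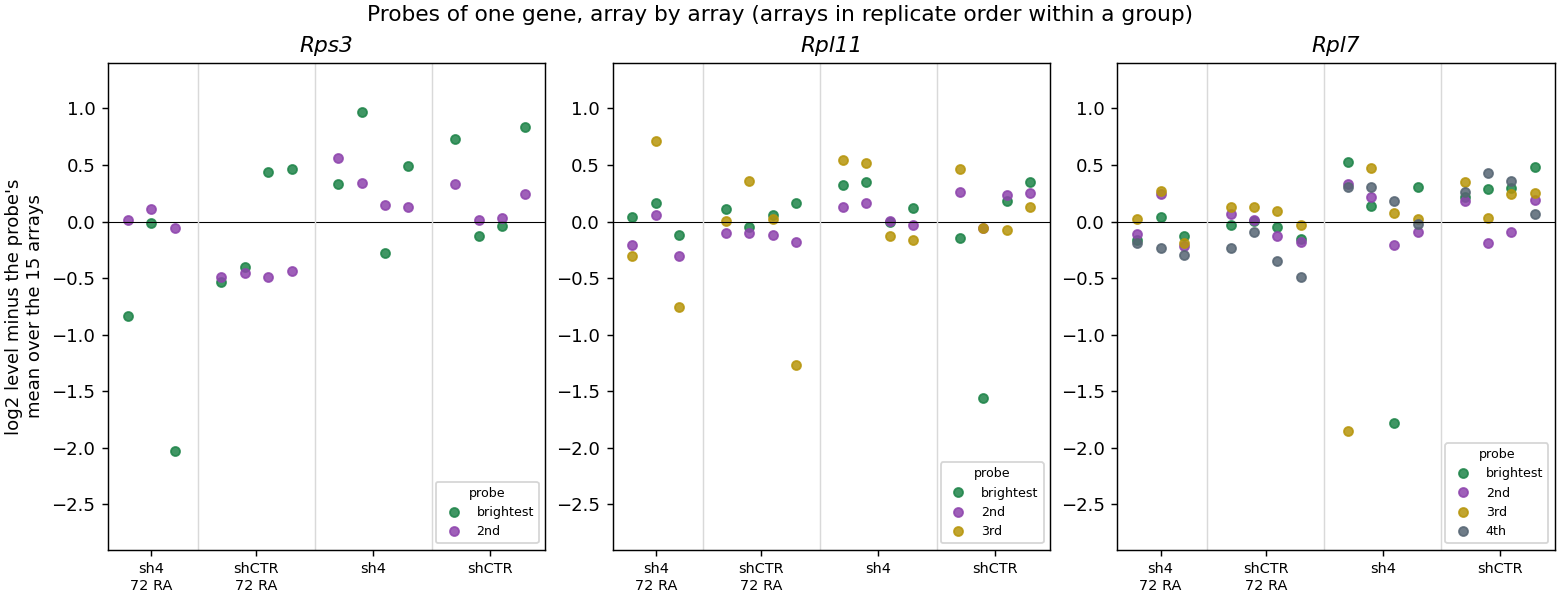
Level of each probe minus its mean over the 15 arrays (y axis, log2) for Rps3, Rpl11 and Rpl7, with arrays in replicate order within the 4 groups (x axis) and 1 colour per probe. Single points more than 1 unit below the rest appear in the brightest probe of each gene. They need not be confined to 1 probe. Another Rpl7 probe had nearly the same untreated hairpin difference as the brightest (−0.54 against −0.52) and nearly the same residual SD (0.557 against 0.562).

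The spread between arrays of a group differed widely among the 84 genes. The residual SD had a median of 0.138, a lowest value of 0.064, and it was above 0.4 for 10 genes. Untreated sh4 replicate 3, 1 of 3 arrays that the scanner software marked for evaluation, had 11 genes more than 0.5 away from their group mean and 4 more than 1 away. The other 14 arrays had 0 to 5 and 0 or 1. Without the 3 marked arrays, 47 genes fell in sh4 and 58 in shCTR.

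Probes of 1 gene also differed in size of response. Of 52 genes with several probes, the brightest was less negative than the median of the others in 35 in sh4 and 36 in shCTR. Median changes were −0.31 for brightest probes and −0.36 for the others in sh4, and −0.35 and −0.49 in shCTR. In 8 genes of each hairpin the probes had both signs. Genes whose brightest probe holds a polyadenylation signal had medians of −0.22 in sh4 and −0.26 in shCTR, with 9 of 24 called lower in each. Those without had medians of −0.37 and −0.45, with 40 and 44 of 60 called lower. Over all genes 31.6% were called lower in sh4 and 33.5% in shCTR. The labels state amplification from oligo-dT, and whether probe position, brightness or copies elsewhere in the genome took part in this was not tested.

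Between the hairpins the ribosomal protein genes barely moved. In untreated cells 2 of 84 were lower in sh4 and none higher, against 14.1% and 14.4% of all genes, and the median was −0.04. In RA none was called in either direction, against 10.3% lower and 10.9% higher over all genes, with a median of 0.03 and with 3 genes at an unadjusted p under 0.05. The 95% interval of the difference stayed within 0.5 log2 units of 0 for 61 genes in untreated cells and 58 in RA, and within 1 for 80 in each. The interaction, the hairpin difference in RA minus that in untreated cells, was called for none of 84, against 20.5% of all genes, with 5 at an unadjusted p under 0.05 and a median of 0.07. Within slides the untreated hairpin median changed sign, at 0.07, 0.10, −0.11 and −0.22 on slides 1 to 4. In RA it was 0.02, 0.15 and −0.06 on slides 1 to 3.

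Rpl3l was the clearest hairpin difference. It read −3.06, −2.92, −2.98 and −2.76 in untreated sh4, against −2.51, −2.47, −2.22 and −2.25 in untreated shCTR, with no overlap. The change was −0.57 (SE 0.09, adjusted p = 0.000424), or 32.4% lower, and it was called under all 8 scalings, as were 8.52% of all genes, and with each array left out. Within slides it was −0.55, −0.45, −0.76 and −0.51. With RA the levels were −2.85, −2.92 and −2.76 in sh4 against −2.79, −2.82, −2.57 and −2.55 in shCTR, a difference of −0.16 (interval −0.38 to 0.07). With slide as a block the interaction of Rpl3l passed, at 0.45 (adjusted p = 0.00349), the only member called higher there, against 14.2% of all genes.

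Rps26, which lines the exit of the mRNA channel, read 6.24, 6.43, 5.94 and 6.50 in untreated sh4, against 6.61, 6.58, 6.66 and 6.80 in untreated shCTR. The groups did not overlap and the difference of −0.39 was just past the threshold (adjusted p = 0.0422). It was lost under 4 of the 8 scalings and in 10 of 15 fits without 1 array. With RA it read 6.14, 6.03 and 6.15 in sh4 against 5.69, 6.003, 6.20 and 6.22 in shCTR, and these groups overlapped. Rps26 thus fell by 0.63 after RA in shCTR (adjusted p = 0.000801) and gave −0.17 in sh4 (adjusted p = 0.338), but its interaction of 0.46 did not pass (adjusted p = 0.124). With slide as a block 2 other genes were lower in sh4 in RA: Rpl22l1 at −0.55 (adjusted p = 0.0412) and Rpl35 at −0.42 (adjusted p = 0.0235), against 13.2% of all genes. Both were named for that call. Without the block Rpl22l1 gave −0.53 (adjusted p = 0.0511), and on slide 3 its difference was 0.07 against −0.83 and −0.85 on slides 1 and 2. Rpl35 gave −0.38 without the block (adjusted p = 0.104), with −0.24, −0.77 and −0.21 on slides 1 to 3, and −0.17 without sh4 replicate 3 with RA.

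Other genes of ribosome production were read on the same arrays. Of 51 assembly factors, 46 fell and 1 rose in sh4 after RA (median −0.88), and 47 fell and 2 rose in shCTR (median −0.77). Under quantile normalisation 43 and 44 still fell, with medians of −0.65 and −0.54. Named by size of change in sh4 or shCTR, Rrp9, a protein of the U3 snoRNP that guides early cuts in the rRNA precursor, fell by 1.87 in sh4 and 1.70 in shCTR. Dkc1, the pseudouridine synthase of box H/ACA snoRNPs, fell by 1.62 and 1.72, and Nle1, which acts late in large-subunit assembly, by 1.66 and 1.48. Against the rest, and named for that, Pes1, another large-subunit factor, rose by 1.19 in sh4 and 0.63 in shCTR, and Sbds, which helps release Eif6 from the subunit, rose by 0.53 in shCTR.

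Of 14 genes of RNA polymerase I and its factors, 11 fell and none rose in each hairpin, with medians of −0.52 and −0.65. Rrn3, which brings the polymerase to the rDNA promoter, fell by 1.21 in sh4 and 1.34 in shCTR, and Polr1b, the second-largest subunit, by 1.22 and 0.81. Of 20 other genes known for TOP mRNAs, such as elongation factors, 14 fell in sh4 (median −0.45) and 16 in shCTR (median −0.55). Under quantile normalisation 3 and 9 fell, with medians of −0.08 and −0.18, so this list depended on the scaling as the ribosomal proteins did. Eif4b fell by 0.96 and 0.61 and Eif4a2, a helicase of translation initiation, by 0.86 and 1.29. Ribosomal protein genes that the naming rule leaves out include Rpl36al, which fell by 0.87 and 0.60, and Fau, which fell by 0.25 in shCTR and gave −0.18 in sh4 (adjusted p = 0.144).

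**Figure D5:**
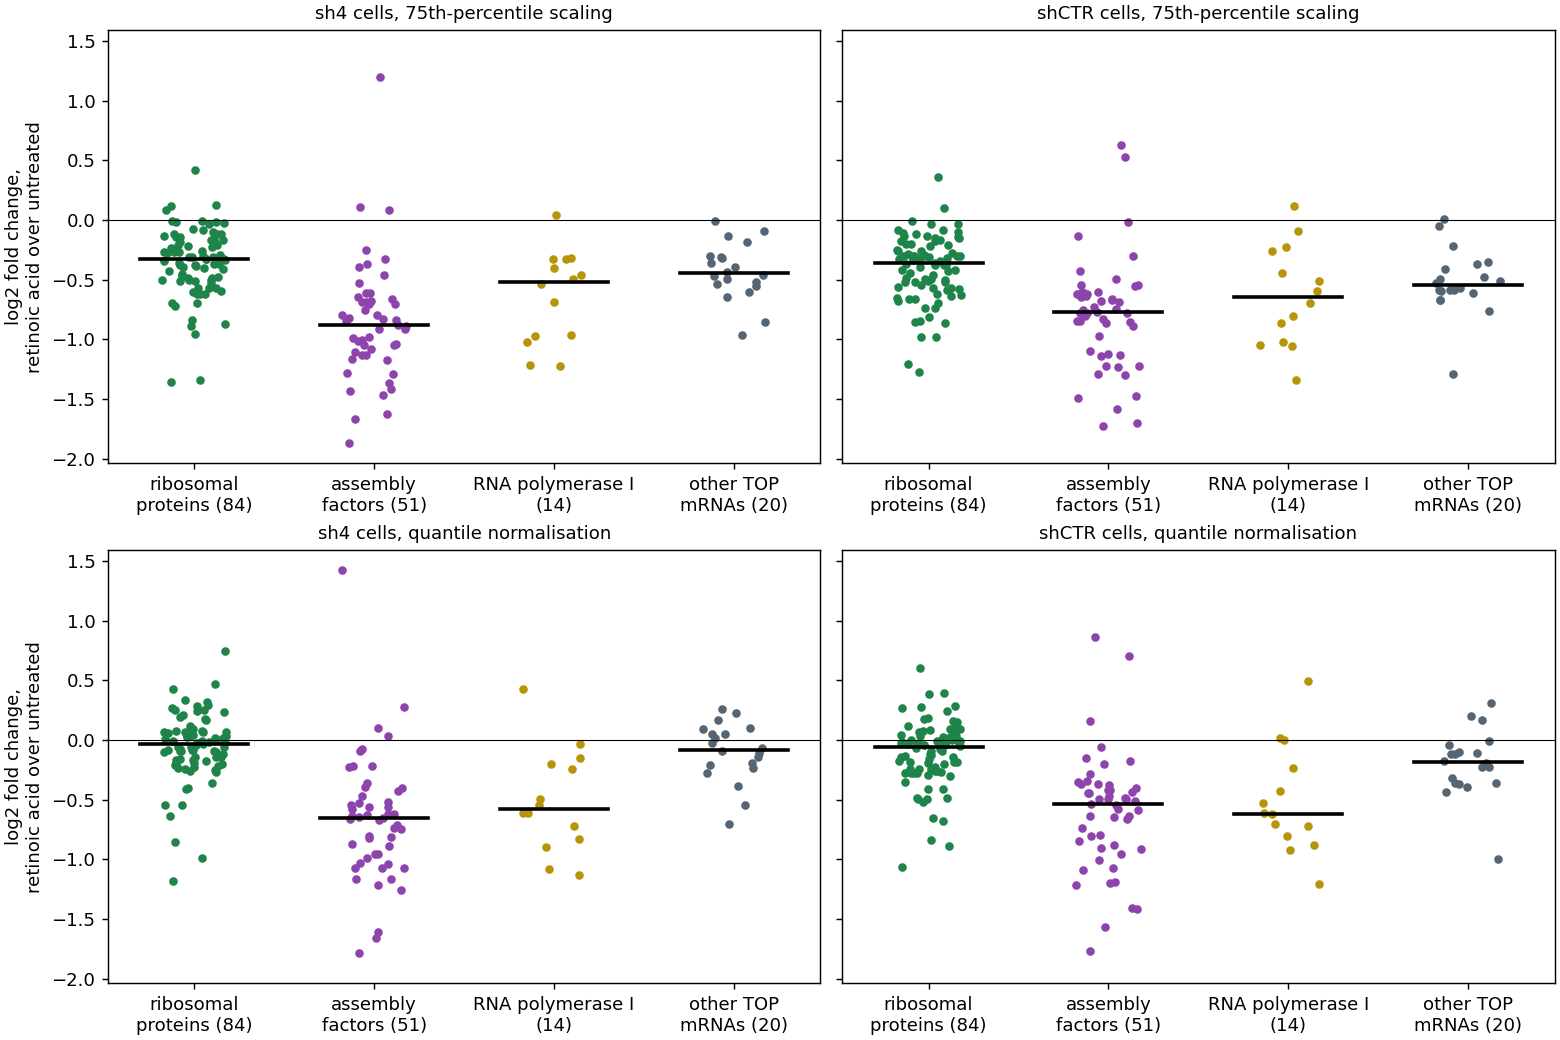
Log2 fold change after RA (y axis) of single genes in 4 groups (x axis, number of genes in brackets), with the median as a bar, in sh4 (left) and shCTR (right), under 75th-percentile scaling (top) and quantile normalisation (bottom). The bars of ribosomal proteins move to near 0 in the bottom row, at −0.03 and −0.06, while those of assembly factors stay at −0.65 and −0.54.

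Regulators moved in both directions. Of 10 Myc and mTOR genes, 7 fell and 1 rose in sh4, and 6 fell and 1 rose in shCTR. Larp1, which binds TOP tracts, fell by 1.09 and 1.14, Eif4ebp1, an mTOR substrate that blocks cap-dependent translation, by 1.25 and 1.39, and Myc by 0.68 and 0.98. Rps6kb1, which encodes an S6 kinase, rose by 0.48 and 0.52. Mycn fell by 2.93 in sh4, gave −0.16 in shCTR (adjusted p = 0.281) and was 1.20 higher in untreated sh4 than in untreated shCTR. Trp53, which encodes p53, fell by 1.14 and 1.42, while its target Cdkn1a rose by 1.28 and 0.48 and Mdm2 by 0.33 and 0.23. Between the hairpins, 5 assembly factors were higher and 3 lower in untreated sh4 and 1 was lower in sh4 with RA, and no RNA polymerase I gene was called. Of the other TOP genes 1 was higher in sh4 in each state. Of the Myc and mTOR genes 2 were higher and 1 lower in untreated sh4, and 1 was higher and 1 lower in sh4 with RA. Mycn was 1.57 lower there and its interaction was −2.77 (adjusted p = 2.24e-07). Of the p53 genes, Mdm2 was 0.25 higher in untreated sh4, and in sh4 with RA it was 0.34 higher and Cdkn1a 0.73 higher.

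Markers of several cell types moved with RA and with the hairpin, and their part in the values above was not tested. In these bulk samples fewer cells of a type and less RNA per cell cannot be told apart. Of 7 ES cell markers, 7 fell in sh4 and 6 in shCTR after RA. Their summed signal, in units of the array's 75th percentile, was 51.4 to 62.1 in sh4 with RA, 94.9 to 102.9 in shCTR with RA, 268 to 316 in untreated sh4 and 297 to 377 in untreated shCTR. All 7 were well above background in every group. After RA these sums came mostly from Dppa5a, with mean levels of 5.66 in sh4 and 6.45 in shCTR. Zfp42, the next highest, stood at 1.54 and 2.29. The median log2 fold change of the 7 was −4.54 in sh4 and −3.97 in shCTR. Of 8 endoderm markers, 7 rose and 1 fell in sh4 and 8 rose in shCTR, with sums of 5.87 to 6.18, 19.5 to 22.2, 0.368 to 0.384 and 0.996 to 1.13 in the same order of groups; Ttr was not well above background in either untreated group, nor Afp in untreated sh4. Of 8 fibroblast markers, which feeder cells would bring, 7 rose and 1 fell in both, with sums of 9.09 to 9.35, 6.95 to 8.58, 1.01 to 1.14 and 2.50 to 2.85. Col3a1, Dcn, Lum and Postn were not well above background in untreated shCTR, nor was Postn in untreated sh4. Between hairpins 5 of the 8 endoderm markers were lower in untreated sh4 and 8 in sh4 with RA. Of 4 trophectoderm markers, 4 were higher in untreated sh4 than in untreated shCTR, with sums of 45.9 to 56.7 against 2.56 to 4.08, while 2 of the 84 ribosomal protein genes differed there. After RA 3 of the 4 rose and 1, Cdx2, fell in sh4, where the sums were 170 to 195, and 4 rose in shCTR, where they were 175 to 203. Krt18 made up most of the trophectoderm sum in every group. Its mean level was 7.51 in sh4 with RA, 7.57 in shCTR with RA, 5.62 in untreated sh4 and 1.71 in untreated shCTR. Of 4 neural markers, 1 rose and 2 fell in sh4 and 2 rose and 2 fell in shCTR after RA.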

How the data were processed

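Total RNA of the 15 samples, 500 ng each, was amplified from oligo-dT, labelled with Cy3 and hybridised to 1-colour Agilent arrays, per the labels. The deposited scanner files hold a processed spot intensity, which Feature Extraction 10.7.3.1 had corrected for background, and the mean and local background intensity, per the file headers. The authors' deposited table of log2 values, with processing not given in the sources used here, served only as an alternative.

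Marked outlier spots were left out, which dropped 117 of 39429 probes. Processed intensities of a probe's spots were averaged as log2 values and each array's 75th percentile was subtracted. Probes that were not well above background in 3 or more arrays of any group were dropped, and the probe with the highest mean intensity stood for a gene name. No spot was saturated, 73.8% to 79.4% of probes were well above background, and the number of arrays limits the precision. Groups were compared with limma 3.58.1 (R 4.3.3, package data.table, version 1.17.8) in 1 model of 4 groups over 15 arrays, two-sided, with Benjamini-Hochberg adjustment over all 25090 genes. Intervals are 95%, with 11 residual degrees of freedom.

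The members and the gene lists were chosen with earlier results of these data known. In each comparison the text names up to 12 members with the largest change past the threshold in each direction, and always the paralogs and their counterparts, the stalk genes, Rpsa, and Rpl5, Rpl11, Rps6, Rps19, Rpl38, Rps3, Rps25, Rpl13a and Rps27a. From each list it names up to 5 genes by size of change. Other members are named for their spread or their place in a count, after their values were seen. The model was tested on simulated data for the RA comparison in shCTR with 25090 genes, of which 200 were changed, with independent noise. There it recovered 76% of changes of 1 and 40% of changes of 0.5 log2 units. In the real comparison 8394 genes were called lower and 7271 higher, and arrays of a slide were correlated. The simulated shares therefore do not give the share of real changes that was found. Alternatives were other scalings, background corrections, filters, probe choices, blocks by slide or replicate number, and arrays left out. Some members and list genes are counted in the totals but not reported by name here.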

Additional observations from a re-analysis of the deposited data

Results flagged for a closer look

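Levels of the 41 named genes were examined in the 3 groups of 4 arrays, 123 sets in all, for a single array whose gap to the nearest of the others was large against the whole range by Dixon's ratio at the 95% level. Chance would mark about 1 set in 20 if the sets were independent and chosen without regard to their values. Neither holds, since some genes were named for their spread and the sets share arrays. The 15 sets that were marked therefore do not measure an excess over chance. All values are log2 levels over the array's 75th percentile.

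Single low arrays came first. Rpl7 read 4.82 in untreated sh4 replicate 3, against 6.74 to 7.13 in the others. Untreated shCTR replicate 2 was low for Rpl13a at 4.66 (others 5.37 to 5.40), Rps18 at 6.33 (others 6.60 to 6.62), Rplp0 at 7.23 (others 7.87 to 7.99) and Rps19 at 4.26 (others 4.44 to 4.47). Both arrays were among the 3 that the scanner software marked for evaluation. Rpl28 read 6.57 in untreated sh4 replicate 2, against 6.92 to 6.96 in the others. Rpl39 read 5.80 in untreated shCTR replicate 1, against 6.03 to 6.06, and Rps4x read 6.01 in shCTR replicate 4 with RA, against 6.08 to 6.09.

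Other arrays were high. Untreated sh4 replicate 1 was high for Rpl30 at 6.26 (others 5.997 to 6.04), Rps7 at 6.09 (others 5.90 to 5.91) and Rpsa at 7.52 (others 7.32 to 7.34). Rpl10l was high on slide 4 in both shCTR groups, at 2.43 with RA (others 2.08 to 2.14) and 3.74 untreated (others 3.36 to 3.39). Rpl35 read 7.56 in shCTR replicate 1 with RA, against 7.31 to 7.35 in the others, and Rpl32 read 7.32 in untreated shCTR replicate 4, against 7.097 to 7.12.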

How the results depend on the processing

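Scaling set the count of falls after RA. In sh4 12 genes fell and 3 rose under quantile normalisation, 14 fell and 3 rose scaled to total signal, and 12 fell and 1 rose both with normexp and quantile and in the deposited log2 values. In shCTR 21 fell and 1 rose under quantile normalisation, 27 fell scaled to total signal, and 25 fell and 1 rose with normexp and quantile and in the deposited values. With the dimmest kept probe of each gene, 3 rose in sh4 and 1 in shCTR. Leaving out 1 array gave 43 to 55 falls in sh4 and 49 to 58 in shCTR, with 0 rises. Scaling to total signal, the dimmest probe and slide as a random block were chosen after seeing the data.

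In untreated cells 1 gene was lower with median scaling, normexp (with quantile or the 75th percentile), the deposited values, no filter on dim probes or without the 3 marked arrays. With the mean of the probes or the dimmest probe 4 were lower, with 1 higher for the dimmest, and with 1 array left out 1 or 2 were lower and none higher. In RA 1 gene was lower with a filter on all arrays, the mean of probes, the replicate block or without the 3 marked arrays, and 2 with slide as a fixed or random block. The mean of probes gave 1 higher and the dimmest probe 7, against 9.21% of all genes, and leaving out 1 array gave 0 to 1 in each direction. The interaction gave 1 higher with the filter on all arrays, the slide block or the replicate block, 3 with the mean of probes or the random slide block and 5 with the dimmest probe, and 0 to 1 in each direction with 1 array left out.

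Signs turned in these cases. With quantile normalisation the RA change in shCTR was 0.025 for Rpl39, 0.082 for Rps4x and 0.037 for Rps25, and with normexp and quantile or the deposited values 0.036, 0.039 and 0.093. In sh4 the quantile values were 0.032 for Rpl39, 0.055 for Rps4x, 0.072 for Rps25 and 0.34 for Rps27l, and the deposited values 0.041, 0.016 and 0.13 with 0.019 for Rpl38. Rpl4 in shCTR gave 0.39 with quantile normalisation and 0.37 with normexp and quantile or the deposited values. In sh4 Rpl32 gave 0.27 with quantile normalisation, 0.28 scaled to total signal and 0.24 with normexp and quantile or the deposited values, and Rps20 gave 0.25 and 0.27 under the first 2 of these. With the dimmest probe Rpl13 gave 0.16 in shCTR, and in sh4 Rpl27a gave 0.090, Rpsa 0.46, Rps6 0.20 and Rpl7 −0.43. The dimmest probe also turned Rps27a between untreated hairpins (−0.48), Rps3 (0.49) and Rps6 (0.20) between hairpins in RA, and the interaction of Rps6 (0.29). Rpl7 in sh4 was −0.36 without the 3 marked arrays and −0.40 without sh4 replicate 3, and between −0.40 and 0.37 over all fits that left out 1 array. The causes were not tested.

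With the replicate block 48 genes fell in sh4 and 54 in shCTR. Deviations of arrays with the same number correlated between −0.533 and 0.578 over 21 pairs. The 3 negative values all involve sh4 replicate 3 with RA, and the other 18 pairs lay between 0.115 and 0.578. As not every pair was positive and the labels do not tie a number to a culture, the samples were not treated as paired. Most pairs with 1 number also share a slide, and the range for arrays of the same slide was 0.115 to 0.607, all positive. The correlation within slides, estimated over all genes, was 0.376. Slide was nevertheless not in the main model, so the calls between hairpins and of the interaction are to be read with those that had slide as a block. The number of arrays, and copies of ribosomal protein genes elsewhere in the genome, limit these values.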
